A study of Mus musculus with 8 samples.

Results

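Col4a1, Col4a2, Nid1 and Col8a1 encode proteins of the basement membrane and of related collagen networks. They are 4 of 49868 loci that carry a gene name in the deposited table, which holds 76557 loci in all, and each of the 4 names stands on exactly 1 locus. They were chosen by their FPKM values in these 8 libraries, which were higher in Has-tKO than in wildtype cells. That difference is therefore given as a description, with no test, and supports nothing else.

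Basement membranes are thin sheets of matrix under epithelia and endothelia and around muscle, fat and Schwann cells. A laminin sheet on the cell surface and a network of type IV collagen form their main layers, and nidogens and heparan sulfate proteoglycans join these layers. Col4a1 and Col4a2 encode the chains of the most widespread type IV collagen, Nid1 encodes the linker nidogen-1, and Col8a1 encodes a short-chain collagen that forms sheet-like lattices under vascular endothelium and in the cornea. Hyaluronan, the glycosaminoglycan that the mutant cells lack the enzymes to make, is a long sugar polymer that the synthases Has1, Has2 and Has3 extrude from the cell.

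The study compared mesenchymal stem cells (MSc) of 4 Has-tKO mice with those of 4 wildtype mice (C57Bl6/J). In Has-tKO cells Has1 and Has3 were deleted in the germline, and Has2 was removed in culture by a Cre recombinase that 4-hydroxytamoxifen switches on. Cells of both genotypes came from the long bones of the hind limbs, were grown for 4 passages, received 4-hydroxytamoxifen for 48 h in 2 of these passages, and were sequenced after 7 days in osteogenic medium. Each library is 1 mouse; the sources used here state neither their age nor the promoter that drives Cre. Levels are FPKM (fragments per kilobase of transcript, relative to the mapped fragments of the library) as the authors deposited them, so they are already set per transcript length.

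Wildtype 1 stood apart from the other libraries. It held 8327 named genes at 1 FPKM or more, against 9679 to 10357 in the other 7, and 61.5% of its FPKM lay on loci without a gene name. This share was 56.4% in Has-tKO 4, which also had the highest sum of FPKM (259871), and 45.4% to 48.7% in the other 6. The median-ratio size factor, which sets libraries to a common level, was 0.660 in wildtype 1, against 0.984 to 1.14 in the other 7. The levels of the 4 genes are therefore given as deposited and after scaling by these factors. Of the targeted genes only Has3 carries a name in the table, at 0.503 ± 0.238 FPKM in Has-tKO and 0.378 ± 0.0995 FPKM in wildtype (SD, n = 4 each; exact permutation p = 0.400, two-sided, where 4 against 4 allows no p below 0.0286). The sources used here do not state the deleted part of Has3, so this level checks no label.

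Col4a1 and Col4a2 lie head to head on chromosome 8 and are transcribed away from each other. The RefSeq windows from 250 bases before to 50 bases after each annotated start are shown because they overlap. The capitals mark the 78 bases that both windows share, read from opposite strands. All coordinates are those of RefSeq on GRCm38.p6, which is not the GRCm39 build that the submitters' processing notes name. The Col4a1 window is chr8:11312777-11313076 on the minus strand and the Col4a2 window is chr8:11312555-11312854 on the plus strand.
Col4a1: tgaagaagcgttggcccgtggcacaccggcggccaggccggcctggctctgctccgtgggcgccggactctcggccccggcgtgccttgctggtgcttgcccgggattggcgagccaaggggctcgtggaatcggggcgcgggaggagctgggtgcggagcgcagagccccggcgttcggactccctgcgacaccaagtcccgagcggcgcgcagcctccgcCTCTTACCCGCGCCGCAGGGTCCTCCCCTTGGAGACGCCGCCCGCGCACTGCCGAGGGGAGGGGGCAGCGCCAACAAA
Col4a2: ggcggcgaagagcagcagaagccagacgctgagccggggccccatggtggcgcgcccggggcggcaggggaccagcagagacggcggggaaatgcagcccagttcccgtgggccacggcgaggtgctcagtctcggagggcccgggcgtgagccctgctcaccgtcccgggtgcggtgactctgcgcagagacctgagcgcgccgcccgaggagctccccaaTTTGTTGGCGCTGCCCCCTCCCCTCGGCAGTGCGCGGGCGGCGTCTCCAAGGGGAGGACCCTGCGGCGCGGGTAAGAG
The annotated start of Col4a2 lies inside the first bases of Col4a1, so 22 bases are annotated as transcribed from both strands. The libraries do not record the strand, and reads from those bases cannot be assigned to either gene.

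Nid1 lies on chromosome 13 and Col8a1 on chromosome 16, so neither shares a promoter with the type IV collagen pair. The 250 bases before their starts are shown for comparison, on the plus strand of chr13:13437352-13437601 for Nid1 and the minus strand of chr16:57754738-57754987 for Col8a1. The capitals mark matches to CCAAT and to GGGCGG (the GC box) on either strand.
Nid1: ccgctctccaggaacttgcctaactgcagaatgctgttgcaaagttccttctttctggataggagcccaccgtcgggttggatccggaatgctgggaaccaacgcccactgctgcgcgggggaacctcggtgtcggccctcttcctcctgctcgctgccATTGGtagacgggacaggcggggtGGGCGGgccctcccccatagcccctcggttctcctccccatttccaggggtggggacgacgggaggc
Col8a1: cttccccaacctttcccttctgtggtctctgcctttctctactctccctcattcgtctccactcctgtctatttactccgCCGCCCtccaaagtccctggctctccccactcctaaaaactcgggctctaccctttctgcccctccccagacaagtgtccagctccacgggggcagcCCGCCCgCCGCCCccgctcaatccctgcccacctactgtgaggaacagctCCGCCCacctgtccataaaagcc
In the windows of 300 bases, CCAAT was found 1 time each at Col4a1, Col4a2 and Nid1 and 0 times at Col8a1. GGGCGG was found 1 time at Col4a1, 3 times at Col4a2, 1 time at Nid1 and 4 times at Col8a1, and 1 match at each of Col4a1 and Col4a2 is the same bases in their shared stretch. TATAAA was found in none of the 4 windows. Among all 32851 promoter windows of this length, 37.4% hold CCAAT, 35.7% hold GGGCGG and 13.6% hold TATAAA on either strand, and no match overlapped another at these genes. A match of letters is a description of the window and shows no bound factor.

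Col4a1 transcripts were higher in Has-tKO cells. Col4a1 had 15.6, 20.1, 15.5 and 16.9 FPKM in Has-tKO 1 to 4, against 9.98, 9.22, 9.82 and 8.76 FPKM in wildtype 1 to 4. The lowest Has-tKO library lay 1.55 times above the highest wildtype library, and the groups did not overlap. The means were 17.0 ± 2.14 FPKM in Has-tKO and 9.45 ± 0.562 FPKM in wildtype (SD, n = 4 each), a ratio of 1.80, and the log2 difference was 0.78 (SE 0.15) on the log2(FPKM + 1) scale.

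Col4a2, which encodes the partner chain, followed the same course. Its levels were 20.8, 25.4, 19.0 and 20.3 FPKM in Has-tKO 1 to 4, against 13.1, 12.2, 12.9 and 12.4 FPKM in wildtype 1 to 4. Again Has-tKO 2 was the highest library and the groups did not overlap. The means were 21.4 ± 2.79 FPKM in Has-tKO and 12.6 ± 0.430 FPKM in wildtype (SD, n = 4 each), with a log2 difference of 0.71 (SE 0.15). Wildtype libraries lay close together for both chains, with a coefficient of variation of 5.95% for Col4a1 and 3.40% for Col4a2, against 12.6% and 13.0% in Has-tKO.

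Nid1, the linker between laminin and type IV collagen, had 21.1, 25.7, 22.7 and 19.7 FPKM in Has-tKO 1 to 4, against 8.47, 17.6, 14.9 and 13.7 FPKM in wildtype 1 to 4. The groups did not overlap, but the gap between Has-tKO 4 and wildtype 2 was a factor of 1.12 only. Wildtype 1, the library that stood apart, was the lowest. The means were 22.3 ± 2.56 FPKM in Has-tKO and 13.7 ± 3.82 FPKM in wildtype (SD, n = 4 each), with a log2 difference of 0.71 (SE 0.21). Leaving out wildtype 1 lowered this difference to 0.51.

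Col8a1 showed the largest difference of the 4 genes. It had 11.8, 11.6, 9.62 and 6.39 FPKM in Has-tKO 1 to 4, against 2.25, 3.90, 3.13 and 3.52 FPKM in wildtype 1 to 4. Has-tKO 4 lay well below the other 3 Has-tKO libraries and still 1.64 times above the highest wildtype library. The means were 9.85 ± 2.51 FPKM in Has-tKO and 3.20 ± 0.708 FPKM in wildtype (SD, n = 4 each), a ratio of 3.08, and the log2 difference was 1.35 (SE 0.21). By the size of this difference Col8a1 ranked 38 among the 9916 genes tested, Col4a1 359, Col4a2 470 and Nid1 476.

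All 4 genes reached 1 FPKM in all 8 libraries, so none entered the fit through 1 genotype alone. In all 4 the genotypes did not overlap, as was the case with Has-tKO above wildtype for 12.0% of all tested genes. This count restates the choice of the genes. The median log2 difference of all tested genes was 0.16 as deposited, so more than the 4 genes lay above 0.

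**Figure D1:**
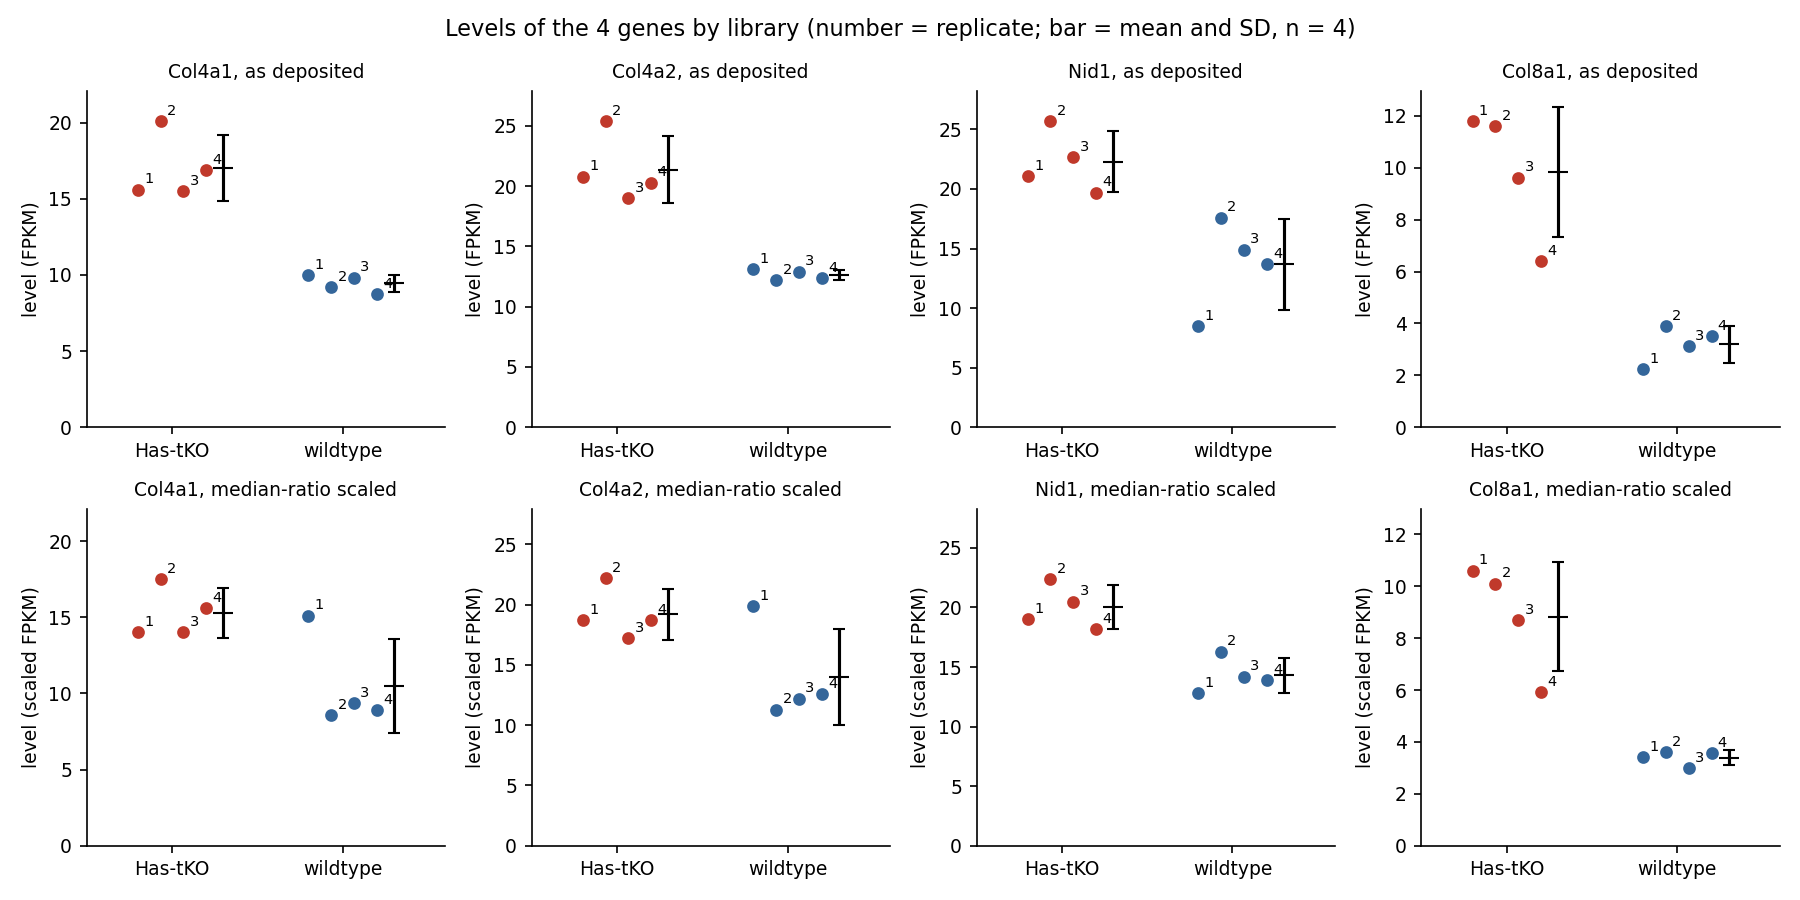
Levels of Col4a1, Col4a2, Nid1 and Col8a1 in FPKM as deposited (upper row) and after median-ratio scaling (lower row), with Has-tKO left and wildtype right in each panel. Each point is 1 library with its replicate number, and the bar gives mean and SD (n = 4). As deposited no genotypes overlap; after scaling wildtype 1 lies among the Has-tKO libraries for Col4a1 (15.1) and Col4a2 (19.9) but not for Nid1 (12.8) or Col8a1 (3.41).

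Scaling lowered the log2 difference of all 4 genes, and made the groups overlap for the type IV collagen pair but not for Col8a1 and Nid1. After scaling Col4a1 had 14.0, 17.5, 14.0 and 15.6 in Has-tKO 1 to 4, against 15.1, 8.55, 9.34 and 8.90 in wildtype 1 to 4, in scaled FPKM. Wildtype 1 thus moved into the range of the Has-tKO libraries, and the other 3 wildtype libraries stayed below it. Col4a2 had 18.7, 22.2, 17.2 and 18.7 in Has-tKO, against 19.9, 11.3, 12.2 and 12.6 in wildtype, with wildtype 1 again the one that overlapped. The log2 differences after scaling were 0.53 (SE 0.17) for Col4a1 and 0.46 (SE 0.17) for Col4a2, and 0.71 and 0.63 with wildtype 1 left out.

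For Nid1 the scaled levels were 19.0, 22.4, 20.5 and 18.2 in Has-tKO, against 12.8, 16.3, 14.2 and 13.9 in wildtype, with no overlap and a log2 difference of 0.46 (SE 0.11). Col8a1 had 10.6, 10.1, 8.70 and 5.91 in Has-tKO, against 3.41, 3.62, 2.98 and 3.58 in wildtype, with no overlap and a log2 difference of 1.14 (SE 0.16). Scaling brought wildtype 1 close to the other wildtype libraries for these genes, and took it away from them for Col4a1 and Col4a2. Of the 4 genes, 2 did not overlap after scaling (5.64% of all tested genes with Has-tKO above), and this count too restates the choice of the genes. The median of all tested genes was then -0.03.

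**Figure D2:**
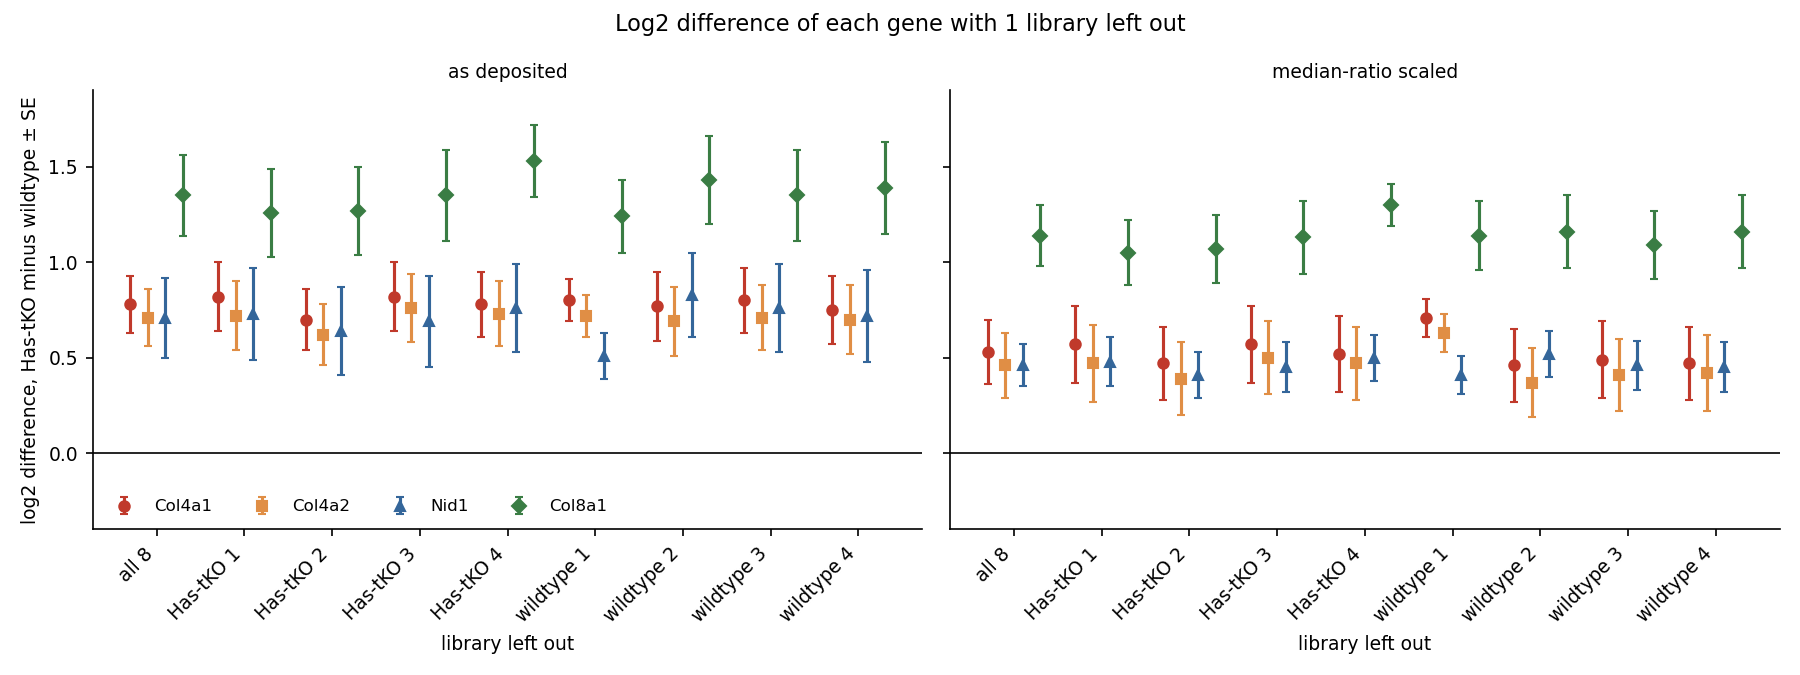
Log2 difference (Has-tKO minus wildtype, ± SE) of Col4a1, Col4a2, Nid1 and Col8a1 with all 8 libraries and with each library named on the axis left out, as deposited (left) and after median-ratio scaling (right). All values lie above 0; Col8a1 runs from 1.24 to 1.53 as deposited, and Nid1 is lowest (0.51) without wildtype 1.

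With 1 library left out at a time, the difference as deposited ranged from 0.70 to 0.82 for Col4a1, from 0.62 to 0.76 for Col4a2, from 0.51 to 0.83 for Nid1 and from 1.24 to 1.53 for Col8a1. After scaling the ranges were 0.46 to 0.71, 0.37 to 0.63, 0.41 to 0.52 and 1.05 to 1.30 for the same genes in that order. The direction did not change in any of these fits, which follows in part from groups that do not overlap. Without wildtype 1 and Has-tKO 4 together, the differences as deposited were 0.81 for Col4a1, 0.75 for Col4a2, 0.56 for Nid1 and 1.41 for Col8a1.

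Within a library, levels can be set against each other per transcript length and free of any scaling between libraries. Col4a2 lay above Col4a1 in 8 of 8 libraries, Nid1 lay above Col4a2 in 6 of 8, and Col8a1 was the lowest of the 4 genes in 8 of 8. The ratio of Col4a2 to Col4a1 was 1.34, 1.27, 1.23 and 1.20 in Has-tKO 1 to 4, against 1.31, 1.32, 1.31 and 1.41 in wildtype 1 to 4. The means were 1.26 ± 0.0606 in Has-tKO and 1.34 ± 0.0486 in wildtype (SD, n = 4 each). The groups overlapped through Has-tKO 1 alone, which lay above 3 of the wildtype libraries. The other Has-tKO libraries (1.27, 1.23 and 1.20) lay below every wildtype library (lowest 1.31). The chain ratio thus lay between 1.20 and 1.41 in all 8 libraries, and was lower in most Has-tKO libraries than in wildtype.

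The ratios of Nid1 and Col8a1 to Col4a1 varied more between libraries. Nid1 to Col4a1 averaged 1.32 ± 0.131 in Has-tKO and 1.46 ± 0.443 in wildtype (SD, n = 4 each), and wildtype 1 had the lowest value (0.849). Col8a1 to Col4a1 was 0.761, 0.576, 0.621 and 0.378 in Has-tKO 1 to 4, against 0.225, 0.423, 0.319 and 0.402 in wildtype 1 to 4. Here 3 of 4 Has-tKO libraries lay above every wildtype library, and Has-tKO 4 lay among them.

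Around their own genotype means, Has-tKO 2 was the highest Has-tKO library for Col4a1 (0.23 on the log2 scale), Col4a2 (0.25) and Nid1 (0.20). Has-tKO 4 was the lowest for Nid1 (-0.17) and Col8a1 (-0.52). In wildtype 1 the genes went apart, with Col4a1 (0.07) and Col4a2 (0.05) the highest of their group and Nid1 (-0.59) and Col8a1 (-0.35) the lowest.

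**Figure D3:**
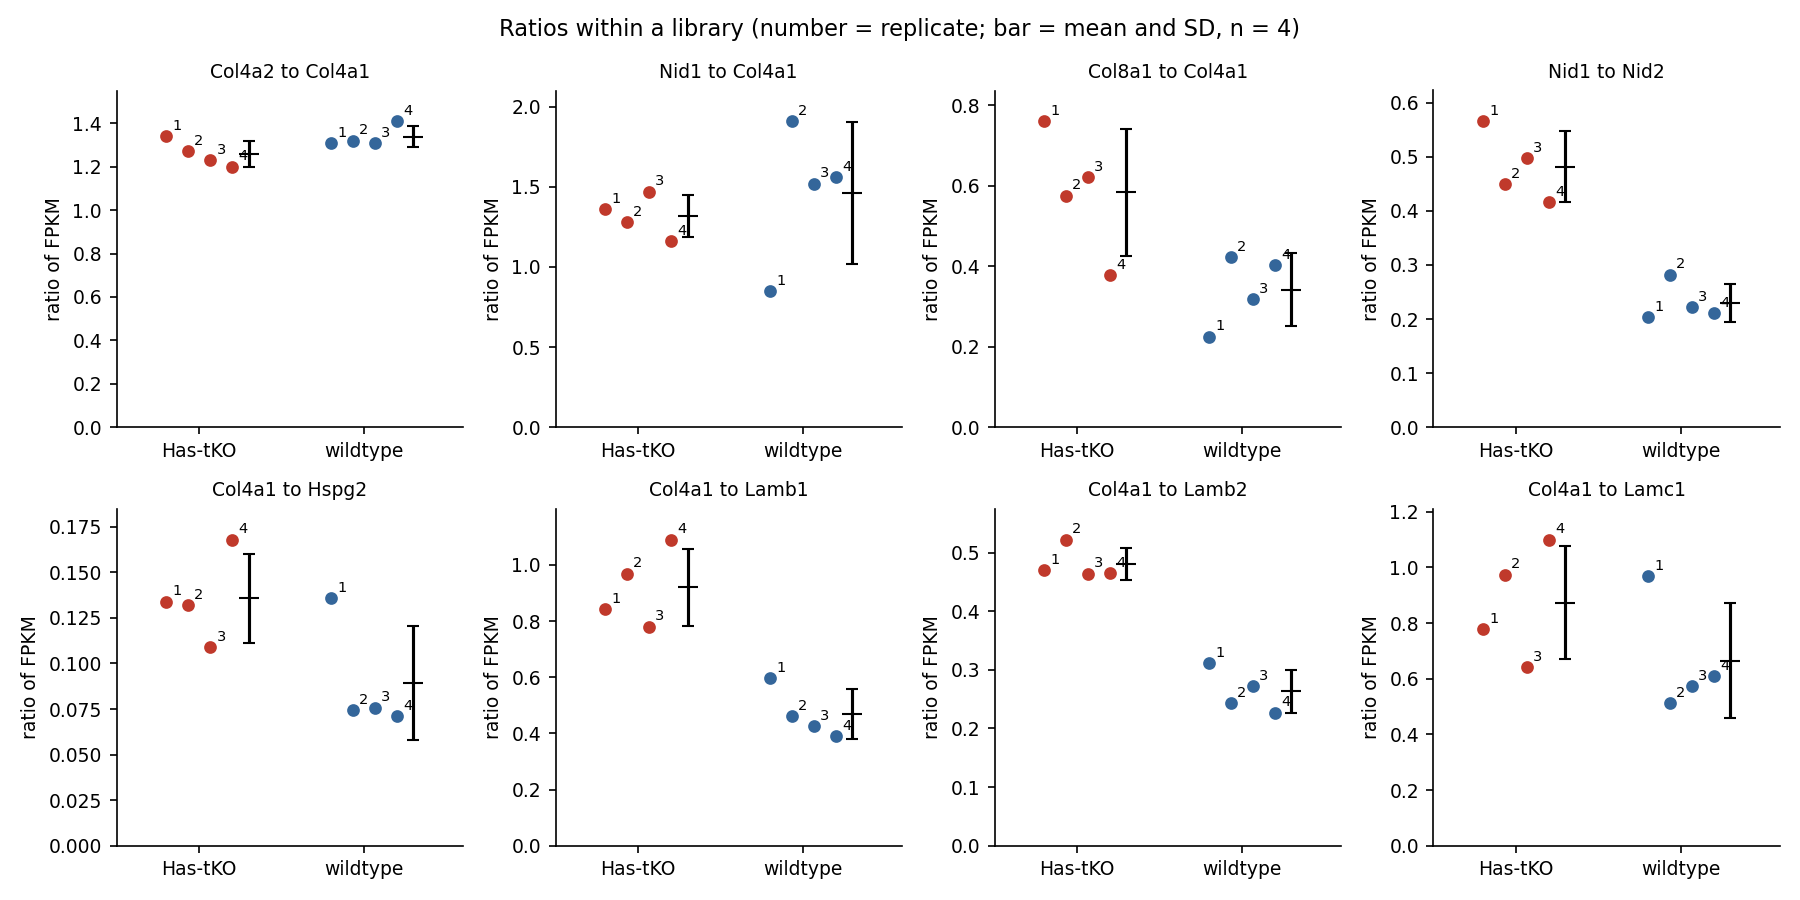
Ratios of FPKM within each library, with Has-tKO left and wildtype right, replicate numbers beside the points and bars for mean and SD (n = 4). The ratio of Col4a2 to Col4a1 spans 1.20 to 1.41 in all 8 libraries, whereas Nid1 to Nid2 and Col4a1 to Lamb1 and to Lamb2 do not overlap between the genotypes.

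Col4a1 and Nid1 were also set against other structural genes of the basement membrane. These ratios were chosen after their values were seen, and they carry the difference that chose Col4a1 and Nid1, so they are a description. The ratio of Nid1 to its relative Nid2 was 0.566, 0.449, 0.497 and 0.416 in Has-tKO 1 to 4, against 0.204, 0.282, 0.222 and 0.211 in wildtype 1 to 4. The groups did not overlap, and wildtype 1 lay with its own group. Col4a1 to the laminin chain gene Lamb2 averaged 0.480 ± 0.0280 in Has-tKO and 0.263 ± 0.0369 in wildtype (SD, n = 4 each), with ranges of 0.464 to 0.522 and 0.227 to 0.311.

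Col4a1 to Lamb1 averaged 0.920 ± 0.138 in Has-tKO and 0.469 ± 0.0901 in wildtype, and did not overlap either. Col4a1 to Hspg2, which encodes the proteoglycan perlecan, overlapped: it was 0.134, 0.132, 0.109 and 0.168 in Has-tKO 1 to 4, against 0.136, 0.0742, 0.0758 and 0.0710 in wildtype 1 to 4, with wildtype 1 inside the Has-tKO range. Col4a1 to the laminin chain gene Lamc1 overlapped as well, at 0.873 ± 0.204 in Has-tKO and 0.666 ± 0.206 in wildtype. Of 8 such ratios of Col4a1 to other structural genes, 4 had every Has-tKO library above every wildtype library (Col4a5, Nid2, Lamb1 and Lamb2). The same held for 27.9% of 9771 other tested genes above 0 in all libraries when each was set under Col4a1.

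The other genes of the basement membrane and of collagen assembly, from lists chosen with earlier results of these data known, mostly did not pass the test. Of 49 tested genes outside the 4, 0 rose and 1 fell in limma, where 1.58% of all tested genes were called higher and 0.192% lower (1.77% in all). At an unadjusted p under 0.05, 5 of the 49 were higher and 6 lower. The share of all tested genes at an unadjusted p under 0.05 was not computed. This count and the later counts at that level therefore have no background beside them. Their median log2 difference was 0.04, against 0.16 for all tested genes. After scaling 0 rose and 5 fell, where 1.36% of all tested genes were called higher and 1.29% lower (2.65% in all), and the median was -0.21, against -0.03 for all tested genes. Of the 49 genes, 6.12% had every Has-tKO library above every wildtype library and 6.12% had every Has-tKO library below, against 12.0% and 1.53% of all tested genes. After scaling these shares were 2.04% and 30.6%, against 5.64% and 7.60% of all tested genes.

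Among the structural genes, the type IV chain gene Col4a5 had 2.77 ± 1.09 FPKM in Has-tKO and 3.07 ± 0.659 FPKM in wildtype (log2 difference -0.15, limma adjusted p = 0.777). Col4a3, Col4a4 and Col4a6 were too low to test. Nid2 had 46.9 ± 8.15 FPKM in Has-tKO and 58.9 ± 11.7 FPKM in wildtype (-0.31, limma adjusted p = 0.443, and -0.57 with adjusted p = 0.0566 after scaling). The only other short-chain collagen gene tested, Col10a1 of hypertrophic cartilage, fell to 4.78 ± 1.11 FPKM in Has-tKO, against 11.0 ± 2.03 FPKM in wildtype (-1.06, SE 0.19, limma adjusted p = 0.0203). As deposited, Col10a1 did not pass without wildtype 2 (limma adjusted p = 0.0566), wildtype 4 (0.0921), Has-tKO 1 (0.0894), Has-tKO 3 (0.0554) or Has-tKO 4 (0.0678). After scaling its difference was -1.28 (limma adjusted p = 0.0139), and it passed in 6 of 8 scaled fits with 1 library left out.

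None of the 5 tested laminin chain genes and none of the 3 tested proteoglycan genes passed in limma, as deposited or scaled, and 0 and 1 of them had an unadjusted p under 0.05 as deposited. Lamb1 had 18.6 ± 2.27 FPKM in Has-tKO and 20.5 ± 2.88 FPKM in wildtype, and Lamb2 had 35.4 ± 2.54 FPKM in Has-tKO and 36.2 ± 2.92 FPKM in wildtype. After scaling both had every Has-tKO library below every wildtype library, as did 7.60% of all tested genes. Their scaled log2 differences were -0.38 for Lamb1 (limma adjusted p = 0.140) and -0.29 for Lamb2 (0.276). Lamc1 had 20.0 ± 3.58 FPKM in Has-tKO and 15.0 ± 3.48 FPKM in wildtype (log2 difference 0.41, limma adjusted p = 0.334). Perlecan (Hspg2) had 128 ± 23.8 FPKM in Has-tKO and 113 ± 26.4 FPKM in wildtype, and agrin (Agrn) had 15.2 ± 4.57 FPKM in Has-tKO and 12.7 ± 1.68 FPKM in wildtype. Col15a1, a collagen of the outer face of basement membranes, had 2.68, 1.86, 2.48 and 2.20 FPKM in Has-tKO 1 to 4, against 1.22, 1.05, 0.709 and 1.26 FPKM in wildtype 1 to 4 (0.68, SE 0.16, limma adjusted p = 0.0550). As deposited the groups did not overlap for Col15a1, as with Has-tKO above wildtype for 12.0% of all tested genes. After scaling they overlapped, and the log2 difference was 0.51 (limma adjusted p = 0.154). With 1 library left out at a time, Col15a1 passed in 1 of 8 fits as deposited, without wildtype 1 (limma adjusted p = 0.0344). It passed in 0 of 8 scaled fits.

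Of 8 tested genes of other basement membrane proteins none passed in limma as deposited (2 at an unadjusted p under 0.05). Sparc, a collagen-binding protein abundant in bone, had 923 ± 139 FPKM in Has-tKO and 1300 ± 117 FPKM in wildtype (log2 difference -0.50, limma adjusted p = 0.118). Every Has-tKO library lay below every wildtype library for Sparc, as for 1.53% of all tested genes. The gap was narrow, between 1110 FPKM in Has-tKO 3 and 1130 FPKM in wildtype 3. Fbln2 had 97.0 ± 21.7 FPKM in Has-tKO and 101 ± 2.02 FPKM in wildtype. The calcium-binding matrix protein gene Smoc1 had 25.1 ± 2.59 FPKM in Has-tKO and 31.5 ± 4.33 FPKM in wildtype, and fell only after scaling (-0.57, limma adjusted p = 0.0422).

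Of 16 tested genes for the folding, secretion and cross-linking of collagen none passed in limma as deposited (3 at an unadjusted p under 0.05), and 2 fell after scaling. Plod2, a lysyl hydroxylase, had 20.0 ± 4.33 FPKM in Has-tKO and 30.4 ± 7.53 FPKM in wildtype (-0.82 after scaling, limma adjusted p = 0.0271). P3h2, a prolyl 3-hydroxylase, had 1.14 ± 0.469 FPKM in Has-tKO and 2.32 ± 0.455 FPKM in wildtype (-0.81 after scaling, limma adjusted p = 0.0393). P4hb, the shared subunit of the prolyl 4-hydroxylases, had 257 ± 10.5 FPKM in Has-tKO and 289 ± 65.1 FPKM in wildtype. P3h3 had 62.5 ± 5.79 FPKM in Has-tKO and 74.4 ± 4.14 FPKM in wildtype. The galactosyltransferase gene Colgalt1 had 63.7 ± 12.7 FPKM in Has-tKO and 74.8 ± 21.7 FPKM in wildtype. Pxdn, the peroxidase that cross-links type IV collagen, was named after its values were seen and had 12.3 ± 2.61 FPKM in Has-tKO and 10.8 ± 3.02 FPKM in wildtype (0.19, limma adjusted p = 0.704).

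None of the 8 tested receptor genes passed in limma, as deposited or scaled, and 1 had an unadjusted p under 0.05 as deposited. The integrin subunit gene Itgb1 had 87.0 ± 10.4 FPKM in Has-tKO and 74.6 ± 21.4 FPKM in wildtype. The laminin receptor dystroglycan (Dag1) had 26.7 ± 2.29 FPKM in Has-tKO and 26.7 ± 6.70 FPKM in wildtype, and the collagen receptor Ddr2 had 22.3 ± 3.46 FPKM in Has-tKO and 22.4 ± 7.94 FPKM in wildtype. Of 6 tested proteases and inhibitors none passed in limma as deposited (3 at an unadjusted p under 0.05), and 1 fell after scaling. The stromelysin Mmp3 had 129 ± 24.1 FPKM in Has-tKO and 195 ± 56.7 FPKM in wildtype (-0.83 after scaling, limma adjusted p = 0.0446). The inhibitors Timp1 and Timp2 had 231 ± 34.2 and 244 ± 22.3 FPKM in Has-tKO, against 287 ± 13.4 and 235 ± 71.3 FPKM in wildtype.

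TGF-beta signalling is a pathway that raises collagen synthesis in many cell types. Of 12 tested genes of this pathway 2 rose and 0 fell in limma, where 1.58% of all tested genes were called higher. At an unadjusted p under 0.05, 7 of the 12 were higher and 1 lower. This list too was chosen with earlier results of these data known, so its counts are a description. Ccn2, a matricellular protein, had 96.3 ± 16.5 FPKM in Has-tKO and 38.3 ± 10.2 FPKM in wildtype (log2 difference 1.33, SE 0.22, limma adjusted p = 0.0156), and was not called without wildtype 4 (0.0550) or Has-tKO 1 (0.0751). Tagln, an actin-binding protein of contractile cells, had 32.0 ± 7.25 FPKM in Has-tKO and 12.8 ± 1.95 FPKM in wildtype (1.25, SE 0.19, limma adjusted p = 0.0136), and was called neither without wildtype 4 (0.0596) nor after scaling (1.0, adjusted p = 0.0569). The receptor gene Tgfbr2 had 34.6 ± 3.36 FPKM in Has-tKO and 22.9 ± 4.85 FPKM in wildtype (0.59, limma adjusted p = 0.116). The ligand gene Tgfb2 had 5.45 ± 1.74 FPKM in Has-tKO and 10.2 ± 2.42 FPKM in wildtype (-0.82, limma adjusted p = 0.0896) and fell after scaling (-1.05, adjusted p = 0.0322). After scaling 1 rose and 1 fell. The median of these 12 genes was 0.48 as deposited, against 0.16 for all tested genes, and 0.24 after scaling, against -0.03.

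The calls made only after scaling also depended on single libraries. With 1 library left out of the scaled fit at a time, Smoc1 passed in 2 of 8 fits, Plod2 in 4, Tgfb2 in 3, and P3h2 and Mmp3 in 0.

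**Figure D4:**
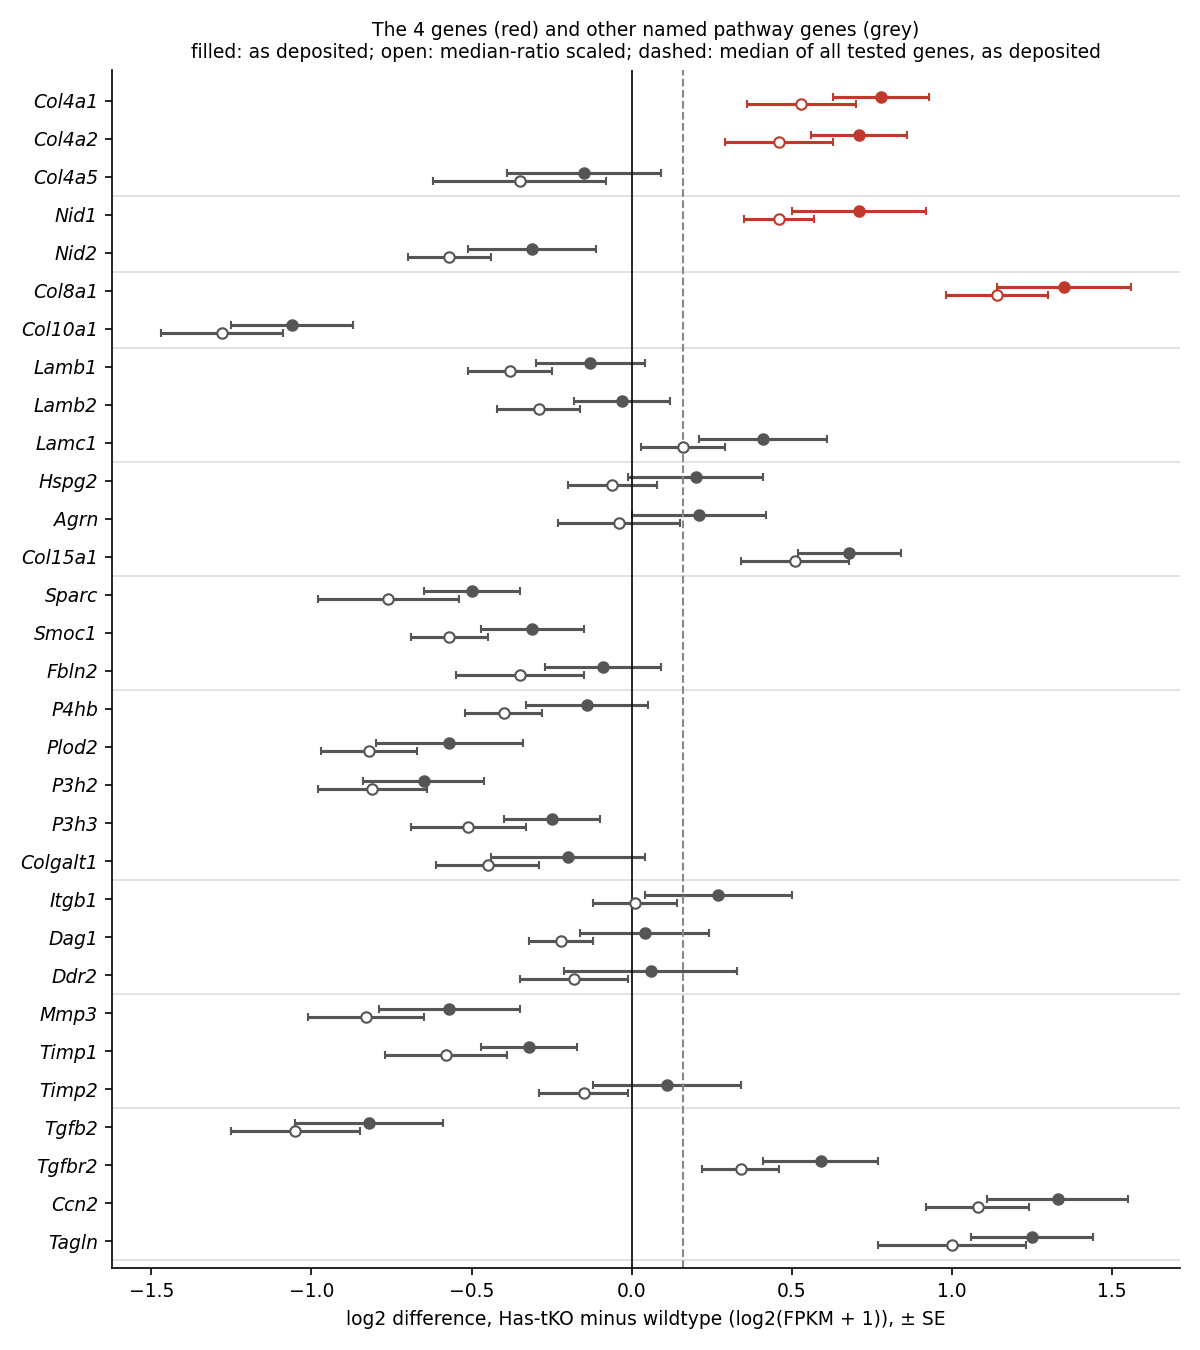
Log2 difference (Has-tKO minus wildtype, from log2(FPKM + 1) values, ± SE) of the 4 genes (red) and of the other named pathway genes (grey), in the order of the lists, as deposited (filled) and after median-ratio scaling (open). The dashed line is the median of all tested genes as deposited (0.16); Nid2 (-0.31), Lamb1 (-0.13) and Lamb2 (-0.03) lie left of it, and the 4 genes lie right of it (0.71 to 1.35).

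The genes with the profile most like each of the 4 were found from the root mean square difference of centred log2(FPKM + 1) values over the 8 libraries, among 9916 tested genes. The measure includes the difference between genotypes that chose the 4 genes, so it is a description. The gene nearest to Col4a1 was Col4a2, and the reverse, at 0.061. Next to Col4a1 came Bcl2 (0.131), Tnfaip8l2 (0.134), Tnip1 (0.145) and Igf2 (0.147), and next to Col4a2 came Tnfaip8l2 (0.112), Lsp1 (0.122), Tnip1 (0.123) and Cldn1 (0.132). Col4a1 and Col4a2 were thus closer to each other than to any other gene tested. Tnip1, for example, had 6.63 ± 0.646 FPKM in Has-tKO and 3.52 ± 0.277 FPKM in wildtype.

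Nid1 and Col8a1 had other neighbours. Nid1 was nearest to Cluh (0.090), Otud4 (0.094), Gnptab (0.098), Gm28809 (0.103) and the Wnt receptor gene Fzd1 (0.103), while Nid1 ranked 738 in nearness to Col4a1. Col8a1 was nearest to Ass1 (0.132), Tnfrsf12a (0.187), Cxcr4 (0.196), Arc (0.20) and Gm23608 (0.201). The nearest, Ass1, an enzyme of arginine synthesis, had 14.4 ± 2.30 FPKM in Has-tKO and 5.52 ± 1.22 FPKM in wildtype. Col8a1 ranked 4357 in nearness to Col4a1. These ranks differ by the gene they are counted from. In nearness to Col8a1, Nid1 ranked 140, Col4a1 230 and Col4a2 251. In nearness to Nid1, Col4a2 ranked 2449, Col4a1 2718 and Col8a1 5433.

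Markers of other cells that make basement membrane were examined in the same libraries. In bulk RNA a change in the number of cells of a type and a change in RNA per cell cannot be told apart. Of 9 endothelial markers with a name in the table only Egfl7 reached the filter, at 4.40 ± 0.470 FPKM in Has-tKO and 5.06 ± 0.741 FPKM in wildtype. The defining endothelial genes were near 0: Cdh5, Kdr and Pecam1 averaged 0.285, 0.189 and 0.232 FPKM in Has-tKO, against 0.108, 0.115 and 0.102 FPKM in wildtype. Emcn was at most 0.00763 FPKM. Esam averaged 1.22 FPKM in Has-tKO and 0.504 FPKM in wildtype and did not reach the filter. Of the named endothelial markers only Egfl7 and Cldn5 had a lower mean in Has-tKO than in wildtype. The summed endothelial markers, made up mostly of Egfl7, ran from 6.34 to 7.00 FPKM in Has-tKO and from 5.73 to 6.93 FPKM in wildtype. After scaling they ran from 5.54 to 6.48 in Has-tKO and from 5.61 to 8.69 in wildtype.

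Of 6 epithelial markers Epcam, Krt8 and Krt18 were listed at 0 in all 8 libraries. The keratin genes Krt5 (2.54 ± 1.83 FPKM in Has-tKO, 1.71 ± 0.659 FPKM in wildtype) and Krt14 (2.83 ± 1.83 FPKM in Has-tKO, 1.70 ± 0.866 FPKM in wildtype) were detected and did not pass. The epithelial sum ran from 3.00 to 10.7 FPKM in Has-tKO and from 1.73 to 4.82 FPKM in wildtype. Of 7 adipocyte markers Lep was listed at 0 in all 8 libraries and Adipoq averaged 0.626 FPKM in Has-tKO and 0.474 FPKM in wildtype. The lipase gene Lpl (12.9 ± 2.50 FPKM in Has-tKO, 10.9 ± 3.11 FPKM in wildtype) and the factor Pparg (2.73 ± 0.424 FPKM in Has-tKO, 2.17 ± 0.717 FPKM in wildtype) were above 0 in both genotypes and did not pass. The adipocyte sum ran from 14.6 to 19.5 FPKM in Has-tKO and from 9.86 to 17.9 FPKM in wildtype.

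Other marker lists had higher sums in most Has-tKO libraries. The summed level of 10 pericyte and smooth muscle markers was at least 153 FPKM in each Has-tKO library and ran from 71.8 to 157 FPKM in wildtype; after scaling it ran from 137 to 239 in Has-tKO and from 109 to 147 in wildtype. It was made up mostly of the smooth muscle actin Acta2 (167 ± 46.5 FPKM in Has-tKO, 91.3 ± 31.4 FPKM in wildtype, limma adjusted p = 0.118). Myh11 (0.203 FPKM in Has-tKO, 0.0527 FPKM in wildtype) and Kcnj8 (0.0445 FPKM in Has-tKO, 0 in wildtype) were near 0. Rgs5 went the other way, at 1.45 ± 0.891 FPKM in Has-tKO and 2.26 ± 1.15 FPKM in wildtype (log2 difference -0.40, limma adjusted p = 0.513). Cspg4 was level, at 15.4 ± 3.54 FPKM in Has-tKO and 15.3 ± 4.31 FPKM in wildtype. Cnn1, Notch3 and Des had log2 differences of 0.43, 0.35 and 0.10. Of the 6 tested genes of this list 0 passed in limma, and 2 had an unadjusted p under 0.05. The 14 macrophage markers summed to 562 to 931 FPKM in Has-tKO and to 346 to 588 FPKM in wildtype (508 to 849 and 337 to 563 after scaling). Of 13 tested, 3 rose in limma (Cx3cr1, Spi1 and Cd52), where 1.58% of all tested genes were called higher. After scaling 1 rose (Cx3cr1), where 1.36% of all tested genes were called higher. All 13 had an unadjusted p under 0.05 in limma as deposited, a level at which the share of all tested genes was not computed.

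The 5 Schwann cell markers summed to 7.23 to 9.29 FPKM in Has-tKO and to 1.95 to 6.61 FPKM in wildtype, led by S100b (4.94 ± 0.486 FPKM in Has-tKO, 2.34 ± 1.35 FPKM in wildtype, limma adjusted p = 0.0898), while the defining factor Sox10 averaged 0.0704 FPKM in Has-tKO and 0.0124 FPKM in wildtype. After scaling the Schwann sum ran from 6.69 to 8.33 in Has-tKO and from 2.95 to 6.72 in wildtype, and the groups overlapped. The part of pericytes, macrophages, Schwann cells, epithelial cells or adipocytes in the levels of the 4 genes was not tested. Of the lineage the cells are labelled as, 7 mesenchymal markers summed to 336 to 398 FPKM in Has-tKO and to 212 to 425 FPKM in wildtype. The 5 osteoblast markers with a name in the table summed to 175 to 260 FPKM in Has-tKO and to 254 to 537 FPKM in wildtype. After scaling the osteoblast sums were 157 to 227 in Has-tKO and 384 to 545 in wildtype and did not overlap. They were made up mostly of Ibsp and Alpl, and both genes fell after scaling (limma adjusted p = 0.0142 and 0.0139). Runx2 and Phex were not called, as deposited or scaled (-0.52 and -0.33 after scaling). Dmp1 went the other way, at 9.20 ± 3.63 FPKM in Has-tKO and 5.47 ± 1.64 FPKM in wildtype (0.39 after scaling, limma adjusted p = 0.418).

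**Figure D5:**
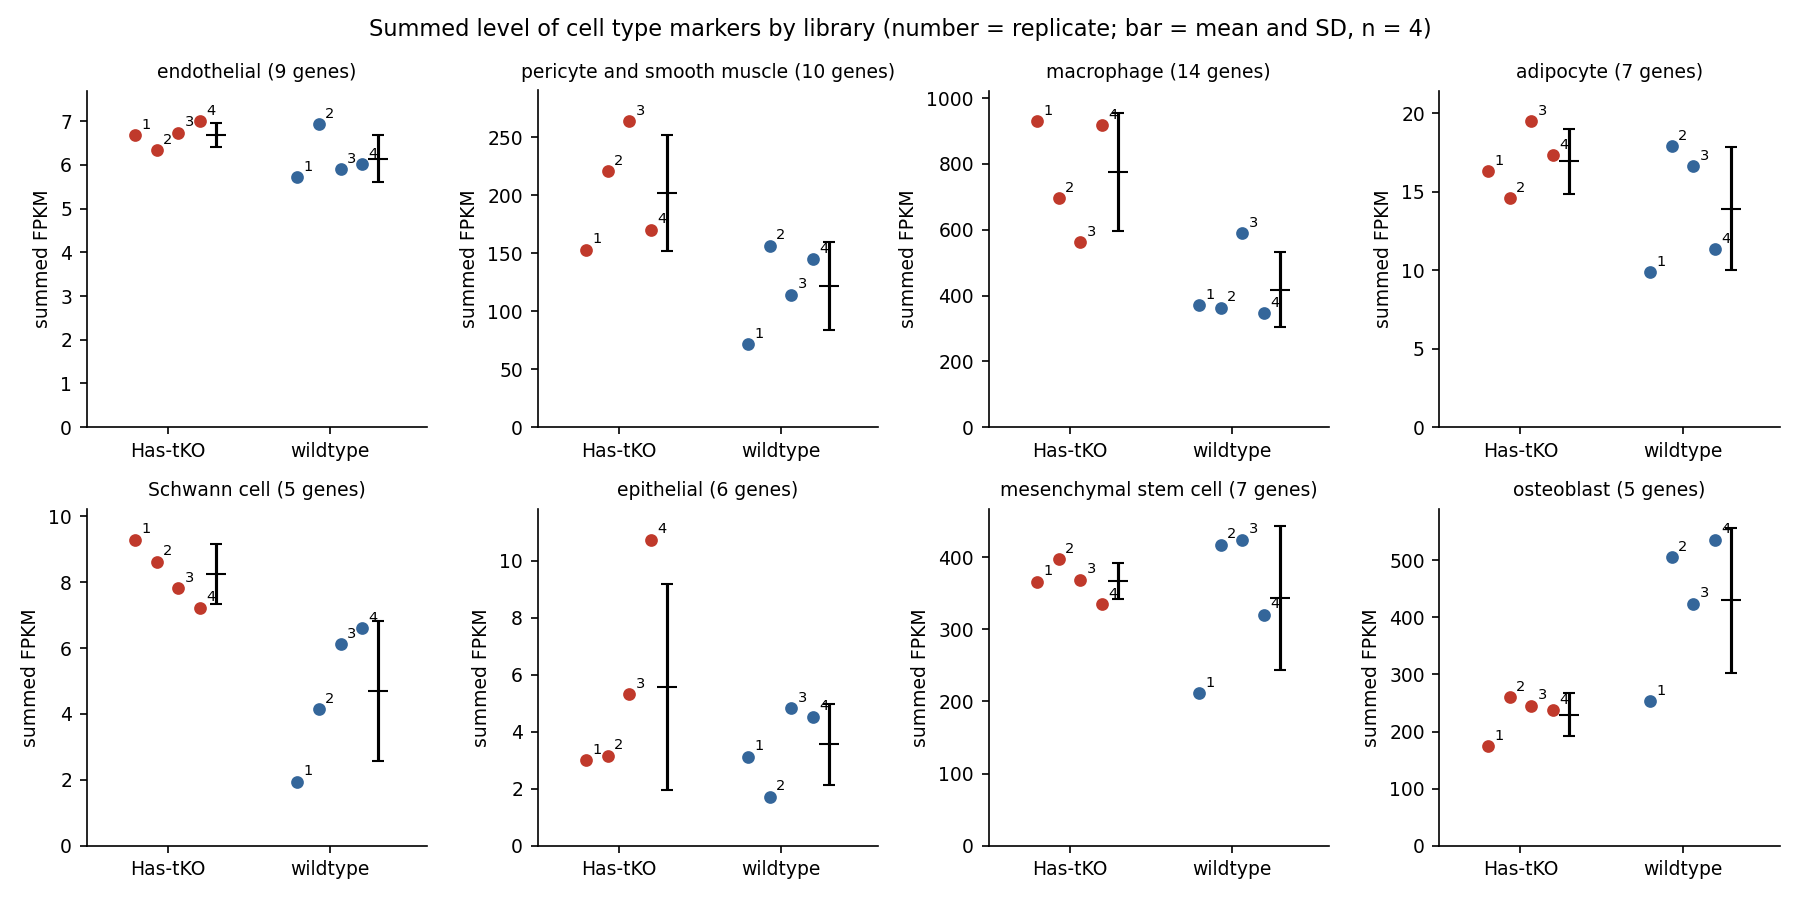
Summed FPKM of the named markers of 8 cell types in each library, with Has-tKO left and wildtype right, replicate numbers beside the points and bars for mean and SD (n = 4). The endothelial sum, made up mostly of Egfl7, stays between 5.73 and 7.00 in all 8 libraries. The macrophage sum reaches 931 in Has-tKO and 588 in wildtype.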

How the data were processed

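Levels are FPKM values that the authors deposited, 1 column per library, assigned by the column names. Per the submitters' processing notes, bcl2fastq, fastp, HISAT2, StringTie and DESeq2 were used, and GRCm39 and hg38 are listed as builds; neither tool versions nor options nor what hg38 was used for are stated there. Per the labels' protocols, libraries were made by rRNA depletion of 100 ng RNA and Nextera tagmentation. Depth is unknown, so no counting error can be given; the columns sum to between 198221 and 259871 FPKM.

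Loci with a name that reached 1 FPKM in 4 or more libraries (9916 genes) were fitted as log2(FPKM + 1) with genotype in limma 3.58.1 (R 4.3.3; empirical Bayes, intensity trend), two-sided, with Benjamini-Hochberg adjustment over all tested genes and a threshold of 0.05. The fit was tested on simulated data, drawn independently for each gene and library. No shift of a whole library was simulated, so that test cannot show how such a shift affects the calls. Log2 differences are Has-tKO minus wildtype and understate changes of low genes. Size factors are medians of ratios over 19489 loci above 0 in all 8 libraries. A merged StringTie locus can hold reads of neighbouring genes, and genes without a name in the table are not analysed here.

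The 4 genes and all lists were chosen with earlier results of these data known. Named genes are the 4, every listed gene past the threshold in either fit, the 3 most abundant tested genes of each list, and the 5 nearest profiles; Pxdn and the marker genes named by level were added after their values were seen. All 4 genes have a RefSeq promoter window; 1-based coordinates are of GRCm38.p6. The alternatives tried were another scaling, a pseudocount of 0.1, no filter, all loci, a replicate block and the omission of libraries.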

Additional observations from a re-analysis of the deposited data

Results flagged for a closer look

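In groups of 4 libraries, Dixon's test for a single distant value was applied to 31 named genes in 62 groups. It marked 4 groups, where chance marks about 1 in 20, and none of the 4 described genes. Has-tKO 4 was marked for Col4a5, at 1.16 FPKM against 3.12 to 3.48 FPKM in the other Has-tKO libraries, and for Itgb1, at 71.5 FPKM against 90.8 to 93.9 FPKM. Wildtype 1 was marked for Hspg2, at 73.2 FPKM against 123 to 130 FPKM in the other wildtype libraries, and for Plod2, at 19.1 FPKM against 33.8 to 34.6 FPKM.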

How the results depend on the processing

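The log2 difference of each of the 4 genes stayed above 0 in every fit run. For Nid1 it was 0.46 after median-ratio scaling, and 0.41 to 0.83 with 1 library left out, with or without scaling. For Col8a1 it was 1.14 after median-ratio scaling, and 1.05 to 1.53 with 1 library left out. For Col4a1 it was 0.53 after median-ratio scaling, 0.57 with size factors from the tested named genes (an alternative chosen after seeing the data) and 0.53 with scaling and the replicate block, and 0.46 to 0.82 with 1 library left out, with or without scaling. For Col4a2 these values were 0.46, 0.49, 0.46 and 0.37 to 0.76. The number of genes changed was 176, against 275 with these other size factors, 111 with a pseudocount of 0.1, 2 without a filter, 31 with scaling and the replicate block, 358 without wildtype 1 and Has-tKO 4, 266 without these after scaling, and 9 to 349 with 1 library left out; the cause was not tested. Of the 61 listed genes, TGF-beta signalling included, 2 rose as deposited (Ccn2 and Tagln, both of the TGF-beta list) and 1 fell. After scaling 1 rose and 6 fell, with the other size factors 1 and 5, without a filter 0 and 0, and with scaling and the replicate block 0 and 1. With the replicate block alone 2 rose and 2 fell, and without wildtype 1 and Has-tKO 4 3 fell, scaled or not. With 1 library left out 0 to 3 rose and 0 to 6 fell. The replicate numbers did not pair the libraries: the deviations of same-numbered libraries correlated at -0.08, 0.31, -0.12 and -0.06, and the block alone gave 147 changed genes. Scaled fits without single libraries were added after seeing the data. For Has3 the exact permutation p was 0.400 as deposited, 0.800 after scaling and 0.571 with a pseudocount of 0.1.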
